A study of Mus musculus with 2 samples.

Results

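Glucocorticoid-responsive genes and Hsd11b1 were described in polyadenylated RNA of adult mouse liver. They are Hsd11b1, Fkbp5, Tsc22d3, Sgk1, Dusp1, Zfp36, Klf9, Klf15, Zbtb16 and Cdkn1a, 10 of the 43346 genes in the deposited tables. They were chosen by the ratio of their reads between the libraries, because several of them differ there. Their levels and ratios are therefore given as a description, without a test.

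The data are 2 libraries, labelled biological replicates 1 and 2 of a single group. Both are liver of 8-week-old C57BL/6J mice, a common inbred strain, and the labels give the animals as littermates of both sexes, pooled. The labels name no treatment, genotype change, feeding state or time of day, and give the health state as unknown. The libraries carry separate biosample records under 1 donor identifier, and whether they came from separate animals is not stated, so the spread between them may be technical.

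Glucocorticoids, chiefly corticosterone in mice, enter the cell and bind the glucocorticoid receptor, which is held by chaperones until it moves to the nucleus and binds response elements in DNA. Liver is a main target tissue, where the hormone raises genes of glucose production and amino acid breakdown and lowers inflammatory signalling. Hsd11b1 encodes the enzyme that regenerates active corticosterone from its inactive form inside liver cells. The other 9 genes are known targets of the receptor in liver or other tissues, and several of them also answer other signals, such as stress kinases, p53 or fasting.

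The gene tables held 60770405 reads in replicate 1 and 61688919 reads in replicate 2. A single read on a gene of 1000 bases was worth 0.0205 and 0.0204 TPM (reads per length, scaled to a fixed sum per library). All 10 genes had at least 1 TPM in both libraries, and the posterior SD deposited for each gene's count was 0 in both. The libraries stand apart over many genes: of 14533 genes with at least 20 reads in all, 3012 (20.7%) were at least 1.5-fold apart. Genes of the Y chromosome held 0 reads in replicate 1 and 1 read in replicate 2, over 1569 genes, although the labels name pooled sexes. The mitochondrial genome held 6.57% of TPM in replicate 1 and 5.53% in replicate 2. Hepatocyte markers led the libraries as the tissue label says, with albumin (Alb) at 32113 and 34763 TPM in replicates 1 and 2.

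The regions before the transcription starts of 4 genes are shown because they hold one of the motifs searched. In each of the next 4 lines the stretch reads 5′ to 3′ along the gene, from RefSeq on GRCm38.p6, with the motif in capitals. The stretches are chr17:28486150-28486399 (minus strand) for Fkbp5, chr6:90462326-90462575 (plus strand) for Klf15, chr10:21993640-21993889 (plus strand) for Sgk1 and chr17:26508520-26508722 (minus strand) for Dusp1.
Fkbp5: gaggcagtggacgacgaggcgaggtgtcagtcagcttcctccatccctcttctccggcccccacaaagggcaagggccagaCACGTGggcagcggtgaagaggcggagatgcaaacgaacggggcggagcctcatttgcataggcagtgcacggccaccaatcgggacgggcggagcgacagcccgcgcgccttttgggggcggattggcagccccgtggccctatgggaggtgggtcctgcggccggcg
Klf15: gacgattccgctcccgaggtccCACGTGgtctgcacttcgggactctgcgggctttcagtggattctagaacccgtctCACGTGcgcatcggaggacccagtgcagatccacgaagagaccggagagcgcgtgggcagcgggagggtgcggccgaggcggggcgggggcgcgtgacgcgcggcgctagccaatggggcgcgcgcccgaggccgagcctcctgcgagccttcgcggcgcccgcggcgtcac
Sgk1: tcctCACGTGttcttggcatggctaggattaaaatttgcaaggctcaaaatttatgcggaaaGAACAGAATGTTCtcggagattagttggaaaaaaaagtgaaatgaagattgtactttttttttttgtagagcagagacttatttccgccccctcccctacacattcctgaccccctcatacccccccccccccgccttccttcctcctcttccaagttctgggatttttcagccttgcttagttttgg
Dusp1: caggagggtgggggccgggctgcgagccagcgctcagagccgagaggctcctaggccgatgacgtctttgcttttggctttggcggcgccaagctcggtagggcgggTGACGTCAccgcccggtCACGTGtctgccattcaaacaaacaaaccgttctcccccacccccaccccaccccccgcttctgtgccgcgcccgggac
The Fkbp5, Klf15 and Sgk1 stretches are the 250 bases before a start, and the Dusp1 stretch holds 203 bases, since the last 47 before its RefSeq start lie in the first exon of its main transcript. The Sgk1 stretch lies before Sgk1-202, a minor transcript of that gene.

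The motifs searched on both strands were GNACA and TGTNC with 3 bases between (the core of a glucocorticoid response element), TGACGTCA (a cyclic AMP response element), CACGTG (an E-box, read by clock and Myc proteins) and TTATGTAA (a D-box, read by Dbp, Tef and Hlf). RefSeq windows were found for 9 of the 10 genes, in 17 windows, and Zbtb16 had none. The response element core was found in 1 of these windows, 188 to 176 bases before Sgk1-202, and in 0.387% of all 32851 promoters. The cyclic AMP element was found 143 to 136 bases before the Dusp1 start, and in 1.55% of all promoters. E-boxes were found in 4 of the 17 windows, 1 each of Fkbp5, Klf15, Sgk1 and Dusp1, and in 6.02% of all promoters. The windows of Klf15, Dusp1 and Fkbp5 hold 72%, 68.4% and 68% of G and C, and that of Sgk1 44.8%. The share over all promoters was not matched for base content or for the number of windows per gene. Klf15 held 2 of them, 228 and 172 bases before its start. The D-box was found in no window of these genes, and in 0.819% of all promoters. A match is a description of letters, and receptor binding was not measured. Positions count back from the RefSeq start. In GENCODE M21 the main start of Tsc22d3 lies 519 bases upstream of the nearest RefSeq start, and that of Zfp36 lies 1025 bases upstream. For Hsd11b1, the main start of replicate 1 (Hsd11b1-203) lies 762 bases downstream of the RefSeq start. The main start of replicate 2 (Hsd11b1-202) lies upstream, at base 193243561 against 193242360 in RefSeq. The window searched for Hsd11b1 thus adjoins neither. The M21 model of Zfp36 is 2790 bases long, against 1792 bases in the deposited table, so its start there may differ.

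Levels of the 10 genes spanned more than 2 orders of magnitude. By mean TPM the order was Hsd11b1, Klf15, Tsc22d3, Zfp36, Klf9, Dusp1, Fkbp5, Sgk1, Cdkn1a and Zbtb16. The ranges over the 2 libraries overlapped between the neighbours Tsc22d3 and Zfp36, between Dusp1 and Fkbp5, and between Sgk1 and Cdkn1a, so their order is not separated beyond the spread. The other neighbours did not overlap.

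**Figure D1:**
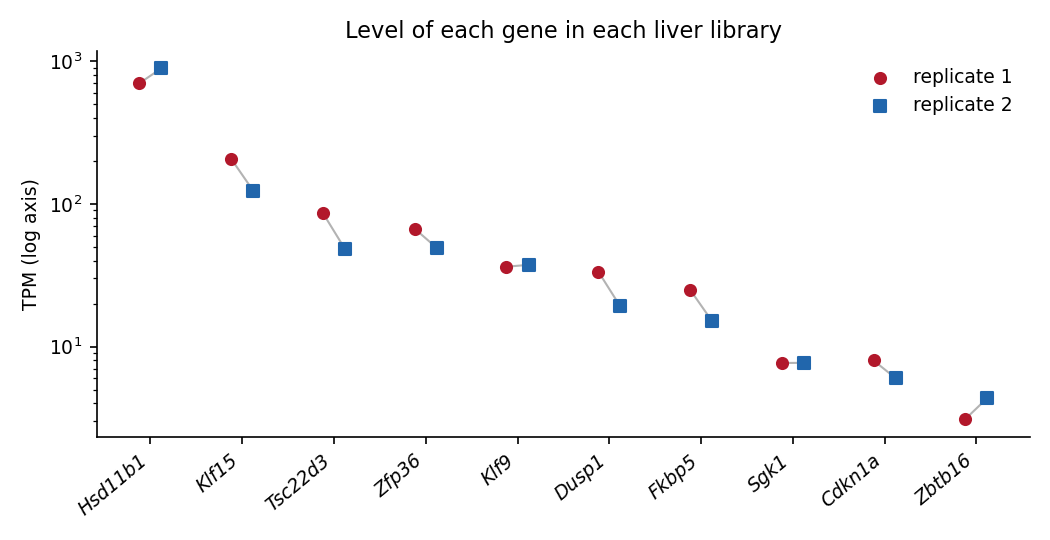
Level of each gene in TPM (log axis), with replicate 1 as red circles left of replicate 2 as blue squares and a grey line joining the libraries. Hsd11b1 stands highest at 699 and 889 TPM and Zbtb16 lowest at 3.11 and 4.37 TPM.

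Between the libraries, 4 of the 10 genes had at least 1.5-fold more reads in replicate 1, after TMM scaling (a trimmed mean over genes), and none had 1.5-fold fewer. The 4 were Dusp1, Tsc22d3, Klf15 and Fkbp5. Over all genes tested, 1093 of 14533 (7.52%) were that much higher in replicate 1 and 1919 (13.2%) that much lower. At a mean of 1 TPM or more, where all 10 lie, these shares were 5.05% and 7.72%. Because the genes were picked for this difference, nothing is read from the comparison with that background. The log2 ratio of replicate 1 over replicate 2 was above 0 for 8 genes and below 0 for 2, with a median of 0.56 beside 0.00 over all genes tested. Fkbp5 was the gene just past the fold, at 0.84, and Zfp36 the gene just short of it, at 0.57. Under scaling by total reads, by spike-in reads or by TPM the same 4 genes stayed past 1.5-fold, while the ratio of Klf9 lay below 0 under each and that of Sgk1 below 0 under TPM.

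**Figure D2:**
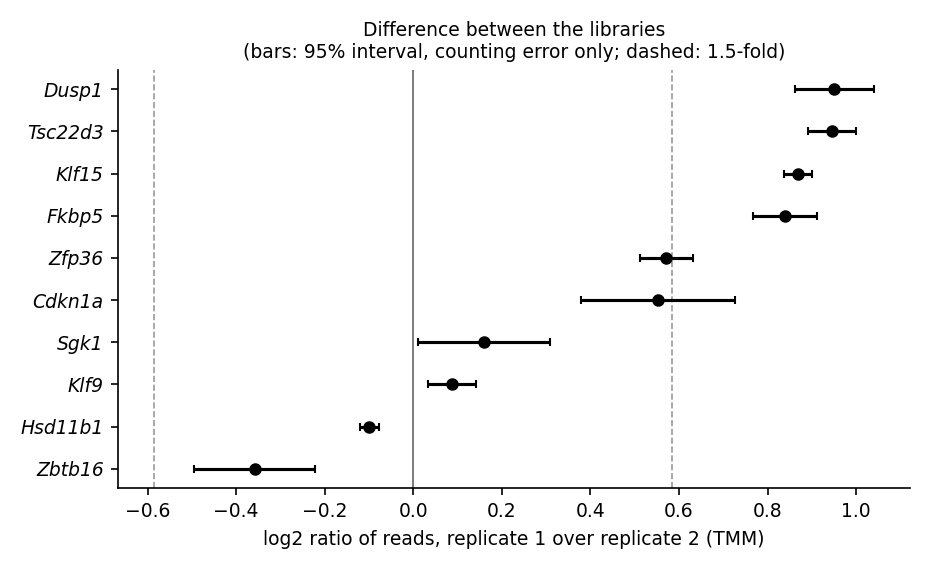
Log2 ratio of reads in replicate 1 over replicate 2 for each gene, with 95% intervals for counting error only and dashed lines at 1.5-fold. Dusp1, Tsc22d3, Klf15 and Fkbp5 lie right of the dashed line, and Zbtb16 lies lowest at -0.36.

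Hsd11b1 (ENSMUSG00000016194, chr1:193221634-193264075 on GRCm38, minus strand) was the most abundant of the 10. It had 32457 reads and 699 TPM in replicate 1, and 38448 reads and 889 TPM in replicate 2, a mean of 794 ± 135 TPM (SD, n = 2). It ranked 166th of all genes by mean TPM. The ratio from reads was small, at -0.10 on the log2 scale (95% interval -0.12 to -0.08), while the ratio from TPM was -0.35. The effective length by which TPM divides was 952 bases in replicate 1 and 880 bases in replicate 2.

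Hsd11b1 was the only one of the 10 genes whose leading transcript model differed between the libraries. Zfp36, Zbtb16 and Klf9 have 1 model each, so theirs could not differ. Hsd11b1-203, of 1256 bases, held 43.0% of the gene's TPM in replicate 1 and 25.9% in replicate 2. Hsd11b1-202, of 836 bases, held 40.1% in replicate 1 and 58.9% in replicate 2. Hsd11b1-201, of 1623 bases and a coding region of 292 codons, held 15.4% and 14.0% in replicates 1 and 2. Hsd11b1-202 carries the weakest transcript support level, 5, and no annotated stop codon. Its assigned reads numbered 8861 in replicate 1 and 16923 in replicate 2, against 15660 and 12176 for Hsd11b1-203. A leading model that differed between the libraries was common: it was seen in 1055 of 8036 genes with several models at a mean of 1 TPM or more (13.1%).

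**Figure D3:**
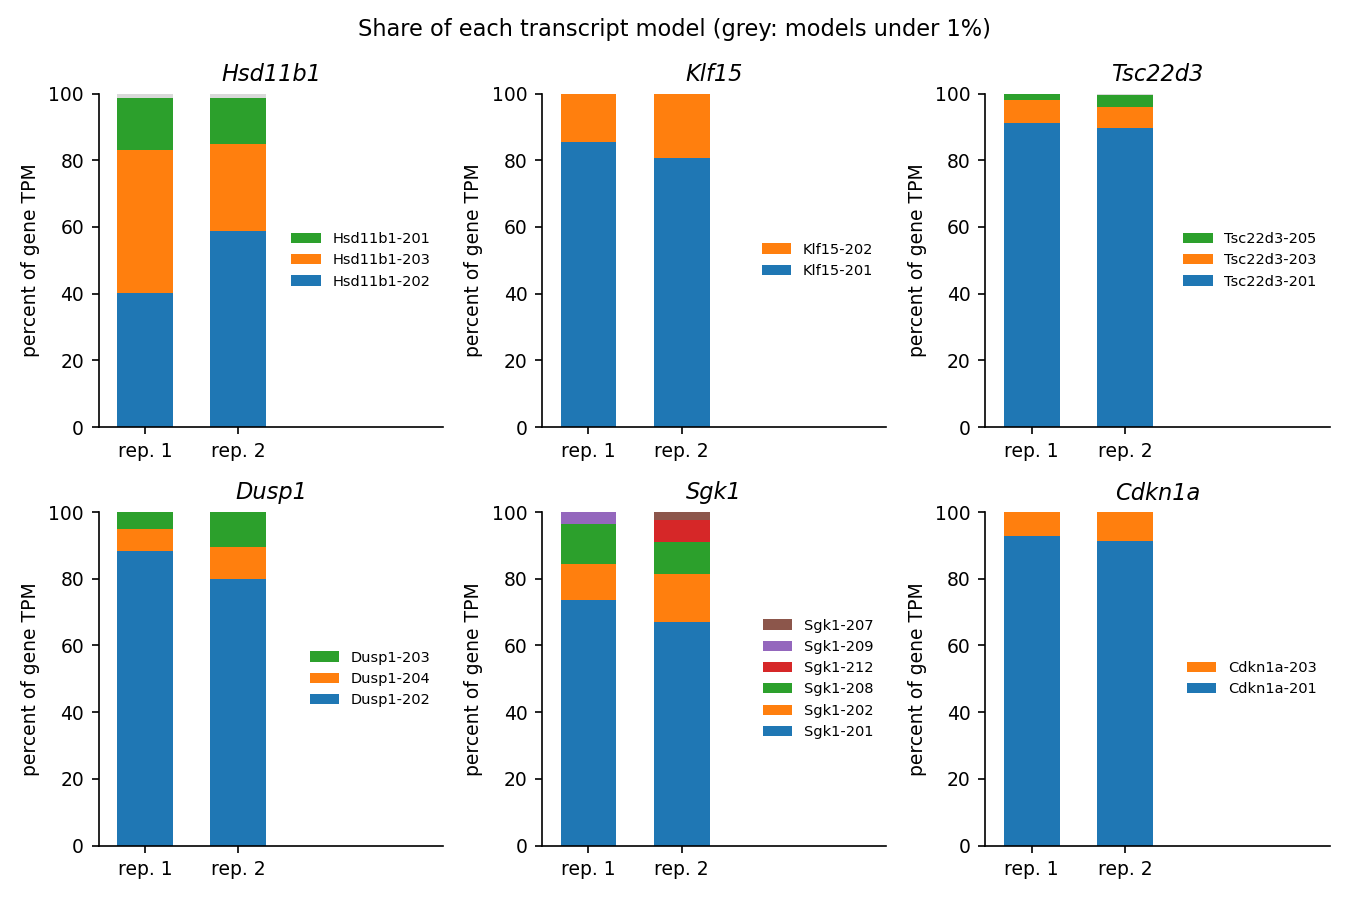
Percent of the gene's TPM held by each transcript model, with replicate 1 left of replicate 2 in each panel, for 6 genes with several models. Hsd11b1-203 leads Hsd11b1 in replicate 1 and Hsd11b1-202 leads it in replicate 2, while the other 5 genes keep their leading model.

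Of the other genes of corticosteroid handling, 5 of the 6 tested lay within 1.5-fold between the libraries and Srd5a2 lay past it. H6pd, which supplies the reduced cofactor that Hsd11b1 uses, had 154 TPM in replicate 1, against 176 TPM in replicate 2. Akr1c6, a hydroxysteroid dehydrogenase, had 230 and 235 TPM in replicates 1 and 2, and Serpina6, the corticosteroid-binding globulin of plasma, had 190 and 211 TPM. Hsd11b2, the enzyme that inactivates corticosterone in kidney, was near the detection limit with 8 reads in replicate 1 and 6 reads in replicate 2. Of the 6 genes of this list tested beside Hsd11b1, 1 was at least 1.5-fold higher in replicate 1 and 0 were lower. Over all genes these shares were 7.52% and 13.2%. The median log2 ratio of the 6 was 0.21. Srd5a2, a steroid reductase, was at 2.28 TPM in replicate 1, against 0.81 TPM in replicate 2. Its relative Srd5a1 had 45.7 and 36.2 TPM and the steroid reductase Akr1d1 77.9 and 64.1 TPM in replicates 1 and 2. H6pd, Hsd11b2, Srd5a1 and Akr1d1 fall outside the naming rule and were chosen after their values were seen, as the partner and the counterpart of Hsd11b1 and the rest of the tested list.

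The receptor itself was close between the libraries. Nr3c1, the glucocorticoid receptor, had 12.54 TPM in replicate 1, against 12.52 TPM in replicate 2, a log2 ratio of 0.03. Nr3c2, the mineralocorticoid receptor, which also binds corticosterone, had 2.68 and 4.06 TPM in replicates 1 and 2 (log2 ratio -0.38). Both receptors were named after their values were seen. The median log2 ratio of 10 receptor and chaperone genes was 0.17. Beside 7.52% higher and 13.2% lower over all genes, 1 of them was at least 1.5-fold higher in replicate 1 and 0 were lower. That gene was Fkbp4, a co-chaperone that aids receptor movement to the nucleus, at 122 TPM in replicate 1, against 85.5 TPM in replicate 2 (0.62), and it lay short of the fold under scaling by total reads, spike-ins or TPM. The chaperone Hsp90ab1 had 228 and 195 TPM, and the corepressor Ncor1 38.1 and 40.1 TPM, in replicates 1 and 2.

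Fkbp5 (ENSMUSG00000024222, chr17:28399094-28517527, minus strand) encodes a co-chaperone that lowers the receptor's affinity for hormone and closes a feedback loop. It had 4010 reads and 25.1 TPM in replicate 1 and 2478 reads and 15.1 TPM in replicate 2, 1.79-fold apart. The log2 ratio was 0.84 (95% interval 0.77 to 0.91), and 3.99% of tested genes had a higher one. Fkbp5-201, whose start the printed stretch adjoins, held 97.4% and 99.2% of its TPM in replicates 1 and 2.

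Tsc22d3 (ENSMUSG00000031431, chrX:140539528-140600659, minus strand) encodes the leucine zipper protein GILZ, which carries part of the anti-inflammatory action of glucocorticoids. It had 7428 reads and 86.1 TPM in replicate 1 and 4265 reads and 48.3 TPM in replicate 2, 1.93-fold apart. The log2 ratio was 0.95 (95% interval 0.89 to 1.00). Tsc22d3-201, with a coding region of 137 codons, held 91.1% of its TPM in replicate 1 and 89.8% in replicate 2. The longer form Tsc22d3-203, with a coding region of 201 codons, held 7.06% and 6.10%.

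Dusp1 (ENSMUSG00000024190, chr17:26505590-26562128, minus strand) encodes a phosphatase that switches off MAP kinases. It had 2849 reads and 33.6 TPM in replicate 1 and 1629 reads and 19.1 TPM in replicate 2, 1.93-fold apart. Its log2 ratio of 0.95 (95% interval 0.86 to 1.04) was close to that of Tsc22d3, and the order of the pair turns under TPM (0.81 for Dusp1 and 0.83 for Tsc22d3). Of all tested genes, 3.09% had a higher ratio. Over the whole M21 span its locus overlaps Ergic1 on the opposite strand, which had 85.5 TPM in replicate 1, against 75.7 TPM in replicate 2. The Dusp1 models that were counted all lie between bases 26505590 and 26508519, a small part of that span. The libraries are strand-specific per the labels, but whether strand entered the counting is not stated in the sources.

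In Dusp1 and Tsc22d3 the coding models differed more between the libraries than the models with a retained intron. The coding model of Dusp1 had 2605 reads in replicate 1 and 1360 reads in replicate 2 (log2 ratio 1.08), while its retained-intron models together had 244 and 269 reads (0.00). The coding models of Tsc22d3 had 7230 reads in replicate 1 and 4021 in replicate 2 (0.99), while its retained-intron model had 194 and 240 reads (-0.17). In Sgk1 and Hsd11b1 the 2 kinds of model had close ratios, with retained introns slightly above. The log2 ratios of retained-intron and coding models were 0.22 and 0.16 in Sgk1, and -0.07 and -0.10 in Hsd11b1. The retained-intron reads were 23.0 and 21.7 in Sgk1 and 26.2 and 30.4 in Hsd11b1, in replicates 1 and 2. On so few reads their order is not resolved. Over 3133 genes with both kinds of model, the median log2 ratio was -0.61 for retained introns and 0.04 for coding models, and retained introns lay below in 79.1%. Among the 170 of these with coding models at least 1.5-fold higher in replicate 1, the medians were -0.40 and 0.77. Retained introns lay below in 91.8% of those 170 genes.

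Zfp36 (ENSMUSG00000044786, chr7:28376784-28380253, minus strand) encodes tristetraprolin, which binds AU-rich stretches in messenger RNA and speeds their decay. It had 5233 reads and 66.9 TPM in replicate 1 and 3892 reads and 49.1 TPM in replicate 2. Its log2 ratio of 0.57 had a 95% interval from 0.51 to 0.63, which includes 1.5-fold. Sgk1 (ENSMUSG00000019970, chr10:21882184-21999903, plus strand), a kinase that acts on ion channels and insulin signalling, had 743 reads in replicate 1 and 735 in replicate 2. Its TPM was 7.68 and 7.70 in replicates 1 and 2, with a log2 ratio of 0.16 (95% interval 0.01 to 0.31). Sgk1-202, the transcript whose window held the response element core, held 10.6% and 14.5% of the gene's TPM in replicates 1 and 2, and Sgk1-201 held 73.6% and 66.9%.

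Because tristetraprolin binds the letters TATTTAT (written as DNA), the 3′ untranslated regions of the leading coding transcripts were searched for them, a search added after the values were seen. A usable region was found for 9 of the 10 genes, and 3 of the 9 held the letters, beside 3270 of 12490 genes (26.2%). The median region was 1329 bases in the 9 and 921 bases over all these genes, and the share was not matched for length. The M21 models of Cdkn1a, Fkbp5, Klf9, Zfp36 and Zbtb16 differ in length from the deposited ones. Dusp1 and Zfp36 held 3 matches each and Sgk1 held 1. The first match in each region follows with the letters in capitals, since Zfp36 messenger RNA itself is one of the holders.
Dusp1: gagctggtcctTATTTATttaacaccccc
Zfp36: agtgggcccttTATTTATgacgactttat
Sgk1: aaaacgggcatTATTTATgttttttttcc
The matches lie 104, 575 and 819 bases after the stop codon in Dusp1, Zfp36 and Sgk1. The region of Dusp1 spans 690 bases. Binding of the protein was not measured.

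Klf15 (ENSMUSG00000030087, chr6:90462576-90475238, plus strand) encodes a zinc finger factor that activates amino acid breakdown and glucose production in fasting liver. It had 21996 reads and 206 TPM in replicate 1 and 13312 reads and 123 TPM in replicate 2, 1.83-fold apart. The log2 ratio was 0.87 (95% interval 0.84 to 0.90). Klf15-201, whose start adjoins the printed stretch with its 2 E-boxes, held 85.5% and 80.7% of its TPM in replicates 1 and 2.

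The relative Klf9 (ENSMUSG00000033863, chr19:23141226-23168134, plus strand), a repressor with daily rhythm in several tissues, was nearly level. It had 5440 reads and 36.3 TPM in replicate 1 and 5662 reads and 37.4 TPM in replicate 2. Its log2 ratio was 0.09 under TMM and -0.04, -0.06 and -0.04 under scaling by total reads, spike-ins and TPM. The 12 other Klf genes tested had a median of 0.01. Of these, 1 was at least 1.5-fold higher in replicate 1 and 0 were lower, beside 7.52% and 13.2% of all genes. The 1 higher gene was Klf13, at 16.6 and 12.2 TPM in replicates 1 and 2, which lay short of the fold under those 3 scalings. Klf15 was the most abundant Klf gene of the liver and Klf9 the next, followed by Klf3 at 22.0 TPM in replicate 1, against 19.8 TPM in replicate 2.

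Zbtb16 (ENSMUSG00000066687, chr9:48654297-48836222, minus strand), a zinc finger repressor induced by glucocorticoids in many human and rodent cells, had the lowest level and the lowest ratio. It had 745 reads and 3.11 TPM in replicate 1 and 1056 reads and 4.37 TPM in replicate 2. Its log2 ratio was -0.36 (95% interval -0.50 to -0.22), and 21.6% of tested genes had a lower one. Cdkn1a (ENSMUSG00000023067, chr17:29090976-29100727, plus strand), an inhibitor of cyclin-dependent kinases, had 642 reads and 8.00 TPM in replicate 1 and 484 reads and 6.01 TPM in replicate 2. Its log2 ratio was 0.55 (95% interval 0.38 to 0.73), an interval that includes 1.5-fold.

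Cdkn1a is best known as a p53 target, and the other p53 targets had log2 ratios on both sides of 0. Of 12 tested, 1 was at least 1.5-fold higher in replicate 1 and 2 were lower, beside 7.52% and 13.2% of all genes. On so few genes these counts are not read as standing apart from that background. Their median of 0.08 lay below 0 under scaling by total reads, spike-ins or TPM. Bbc3, which promotes cell death, had 23.4 TPM in replicate 1, against 12.8 TPM in replicate 2. Phlda3, an inhibitor of Akt signalling, had 0.53 and 1.57 TPM in replicates 1 and 2. The other lower gene, Eda2r, had only 5 reads in replicate 1 and 15 reads in replicate 2. Bax, a mediator of cell death, had 35.7 and 40.3 TPM, Gdf15, a stress hormone, 19.99 and 23.92 TPM, and the nuclease gene Aen 19.03 and 18 TPM, in replicates 1 and 2.

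Other known glucocorticoid targets of liver stood apart in larger numbers. Of 24 tested, 10 lay at least 1.5-fold higher in replicate 1 and 1 was lower, beside 7.52% and 13.2% of all genes. Their median log2 ratio was 0.48, and 22 of 24 were above 0. The counts higher and lower were 10 and 1 under scaling by total reads, 8 and 1 by spike-ins and 9 and 1 by TPM. Several genes of the list also answer fasting, metals or inflammation, and the list was drawn up with earlier results of these libraries known, so its direction is not independent evidence.

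The metallothionein Mt2, a metal-binding protein, stood at 119 TPM in replicate 1, against 7.11 TPM in replicate 2 (log2 ratio 4.16). Its neighbour Mt1 had 1439 TPM in replicate 1, against 341 TPM in replicate 2 (2.17). Igfbp1, a carrier of growth factors related to insulin, had 42.6 and 14.8 TPM in replicates 1 and 2 (1.65). Pck1, the control enzyme of glucose production, had 491 TPM in replicate 1, against 207 TPM in replicate 2 (1.39). Tat, which starts tyrosine breakdown, had 1183 and 747 TPM in replicates 1 and 2 (0.79), and Tdo2, which starts tryptophan breakdown, had 936 and 800 TPM (0.33). The other genes past the fold were Pdk4 (1.10), Angptl4 (0.90), Per1 (0.74), Lcn2 (0.71) and Sult1e1, the last on 21 reads in replicate 1 and 0 reads in replicate 2. The 1 lower gene was Lpin1, a phosphatase of lipid synthesis, at 9.67 TPM in replicate 1, against 16.7 TPM in replicate 2 (-0.66). These genes complete the counts and were named after their values were seen.

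**Figure D4:**
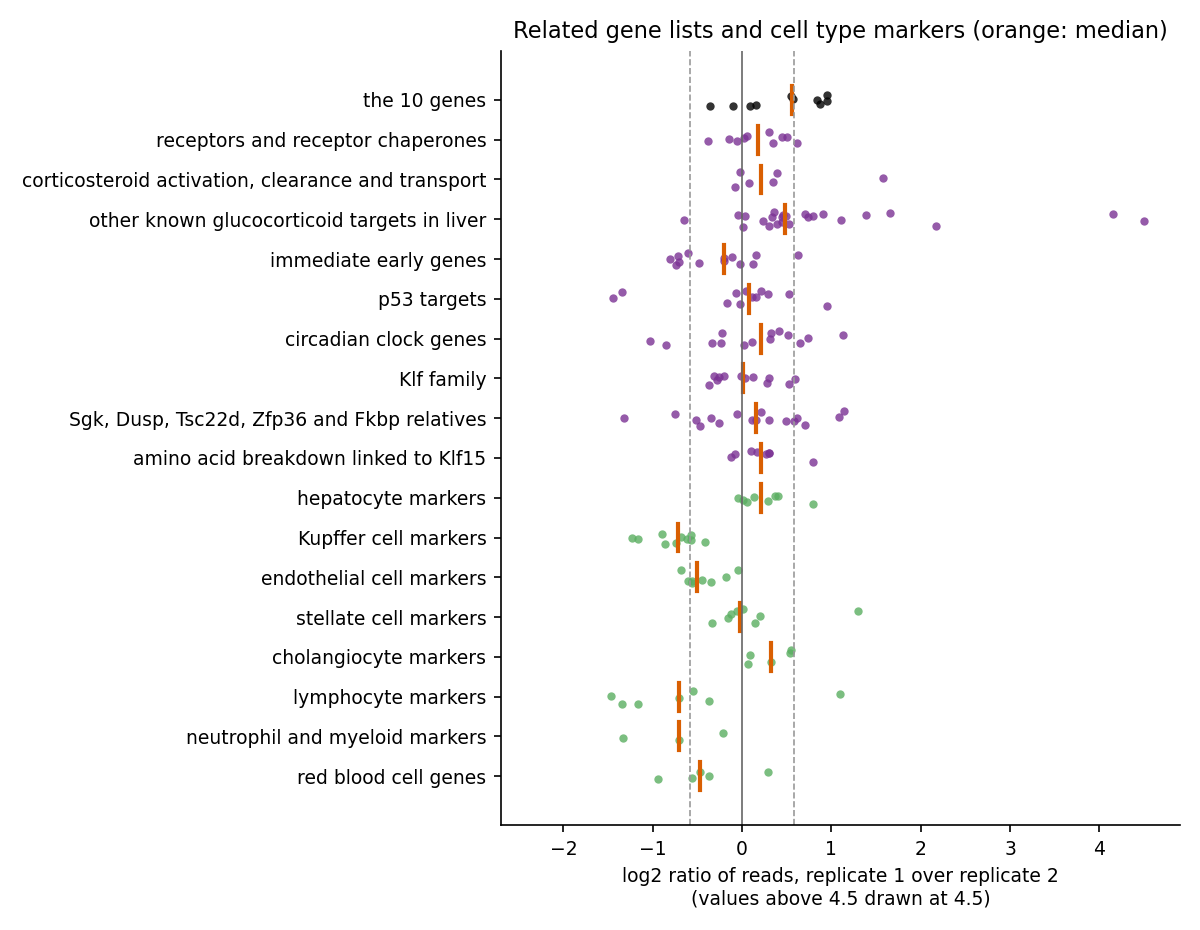
Log2 ratio of reads in replicate 1 over replicate 2 for each gene of the lists (10 described genes in black, related lists in purple, cell type markers in green), with the median in orange and dashed lines at 1.5-fold. The other glucocorticoid targets have a median of 0.48 and the Kupffer cell markers one of -0.71.

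Among enzymes of amino acid breakdown linked to Klf15, 1 of 8 was at least 1.5-fold higher in replicate 1 and 0 were lower. Over all genes these shares were 7.52% and 13.2%. The median of the 8 was 0.22, and the 1 higher gene was Tat. Sds, a serine dehydratase, had 594 TPM in replicate 1, against 557 TPM in replicate 2, and Prodh, which starts proline breakdown, had 324 and 303 TPM.

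Dusp1 and Zfp36 are also immediate early genes, which rise within minutes of many stimuli, and the other genes of that class gave 5 lower and 1 higher call. Of 13 tested, 1 was at least 1.5-fold higher in replicate 1 and 5 were lower, beside 7.52% and 13.2% of all genes. Their median was -0.21, and under scaling by total reads, spike-ins or TPM none was higher and 6, 6 and 4 were lower. The lower ones included the growth regulator Myc at 0.91 TPM in replicate 1, against 1.74 TPM in replicate 2, and Egr1 at 3.44 and 5.97 TPM. Jun, a subunit of the factor AP-1, had 2.68 TPM in replicate 1, against 4.92 TPM in replicate 2. Ier3, a regulator of cell survival, had 0.76 and 1.37 TPM, and Fos, the partner of Jun, had 0.41 and 0.56 TPM. The higher one was Junb, at 14.7 TPM in replicate 1, against 10.4 TPM in replicate 2, which lay short of the fold under scaling by total reads, spike-ins or TPM. The most abundant, Jund, had 52.4 and 58.2 TPM, and Ier2 had 10.6 and 10.3 TPM, in replicates 1 and 2.

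Clock genes gave calls in both directions. Of 14 tested, 3 lay at least 1.5-fold higher in replicate 1 and 2 were lower, beside 7.52% and 13.2% of all genes. Their median was 0.22. The counts were 2 and 2 under scaling by total reads, and 1 and 2 under spike-ins or TPM. The higher ones were Nfil3, a repressor at D-boxes, at 13.6 TPM in replicate 1, against 6.75 TPM in replicate 2, Per1 at 5.83 and 3.99 TPM, and Cry1 at 6.45 and 4.49 TPM. The lower ones were Dbp, an activator at D-boxes, at 6.96 TPM in replicate 1, against 13.3 TPM in replicate 2, and Per3 at 1.33 and 3.45 TPM. Nr1d1, a repressor of the core clock, had 63.2 TPM in replicate 1, against 91.2 TPM in replicate 2, a log2 ratio of -0.34. Tef had 29.9 and 29.8 TPM and Hlf 21.3 and 15.9 TPM in replicates 1 and 2. The hour of tissue collection is not stated in the labels, and its part in the result was not tested.

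Relatives of the 10 genes also differed among themselves. Of 17 tested, 4 lay at least 1.5-fold higher in replicate 1 and 2 were lower, beside 7.52% and 13.2% of all genes. Their median was 0.16, and the counts were 2 and 4 under scaling by total reads or by spike-ins. Tsc22d1, a relative of Tsc22d3, had 50.6 TPM in replicate 1, against 24.4 TPM in replicate 2 (1.14). Zfp36l2, a relative of Zfp36, had 22.2 and 14.9 TPM (0.71), and Zfp36l1 had 136 and 108 TPM (0.49). The 2 lower ones were phosphatases related to Dusp1, both under 1 TPM on average. Dusp5 had 0.37 TPM in replicate 1, against 1.01 TPM in replicate 2 (-1.32), and Dusp2 had 0.37 and 0.72 TPM (-0.76). Tsc22d4, within the fold, had 9.60 and 19.02 TPM in replicates 1 and 2, and a log2 ratio of reads of -0.52. These 3 were named after their values were seen. Cdkn1c, a relative of Cdkn1a, had 3 TPM in replicate 1, against 1.55 TPM in replicate 2 (1.09).

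Markers of other liver cells also differed between the libraries, and their counts are set beside the shares of all genes past 1.5-fold, 7.52% higher and 13.2% lower in replicate 1. Kupffer cell markers (liver macrophages) summed to 221 TPM in replicate 1, against 369 TPM in replicate 2, and 7 of 10 were at least 1.5-fold lower in replicate 1. Endothelial markers summed to 117 and 164 TPM, with 2 of 8 lower. Lymphocyte markers summed to 6.15 and 12.74 TPM, with 4 of 7 lower and 1 higher (Cd3d). The lower ones were Cd79a, Cd79b, Ms4a1 and Trac. Of these, Ms4a1 had 9 and 23 reads and Trac 7 and 13 reads in replicates 1 and 2. Red blood cell genes summed to 1290 and 2110 TPM, with 1 of 5 lower, and their near-identical copies make single values uncertain. Stellate cell markers summed to 415 TPM in replicate 1, against 455 TPM in replicate 2, with 1 of 8 higher (Lrat, log2 ratio 1.30) and 0 lower. Cholangiocyte markers summed to 21.2 and 18.7 TPM, with 0 of 5 higher or lower. Neutrophil and myeloid markers summed to 3.12 and 4.60 TPM, with 2 of 3 lower, of which Retnlg had 7 and 13 reads in replicates 1 and 2. Under TMM, neither 2 of 8 nor 1 of 5 is read as standing apart from that background. All 8 endothelial markers lay below 0, with a median of -0.50. By total reads, spike-ins and TPM, 9, 9 and 8 of the 10 Kupffer markers were lower, and 4, 5 and 3 of the 8 endothelial ones. For red cells 3, 3 and 2 of 5 were lower, and for lymphocytes 5 of 7 under each. The shares of all genes lower were then 17.2%, 18.2% and 16.3%, so these counts depend on the scaling. Hepatocyte markers summed to 55286 TPM in replicate 1, against 56437 TPM in replicate 2, with 1 of 8 higher and 0 lower. The 1 is Tat, which is also counted as a glucocorticoid target and as an enzyme linked to Klf15. In bulk tissue, fewer cells of a type and less RNA per cell cannot be told apart, and the part of these markers in the ratios of the 10 genes was not tested.

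The most abundant marker of each list was C1qc for Kupffer cells (55.5 and 89.8 TPM in replicates 1 and 2), Clec4g for endothelium (41.0 and 49.6 TPM), Ecm1 for stellate cells (298 and 323 TPM) and Spp1 for cholangiocytes (16.2 and 14.4 TPM). For lymphocytes it was Cd79a (1.63 and 4.93 TPM), for neutrophils Csf3r (1.14 and 2.47 TPM) and for red cells Hba-a2 (505 and 747 TPM). Adipocyte markers summed to 3 TPM in replicate 1, against 2.42 TPM in replicate 2, led by Fabp4 at 2.06 and 2.20 TPM. Of 6 adrenal cortex markers, 5 were under 0.1 TPM in both libraries and 3 of these had no reads, while Star had 0.36 TPM in each.

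The genes most like Dusp1 by distance in log2(TPM + 1) over the 2 libraries were Ppp1r3c, C1d and Apmap. Ppp1r3c had 33.6 TPM in replicate 1, against 20.1 TPM in replicate 2. Those most like Zbtb16 were Slc44a2, Pomgnt2 and Ino80d, and Slc44a2 had 3.06 and 4.40 TPM in replicates 1 and 2. With only 2 libraries, such likeness says no more than that the paired values are close.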

How the data were processed

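Polyadenylated RNA longer than 200 nucleotides was sequenced as strand-specific pairs of 76 nucleotides, per the labels. Quantification on mm10 with GENCODE M4 is named in the deposited notes; the aligner and the counter are not stated there (not given in the sources used here). Deposited expected counts need not be whole, since shared reads are divided. The deposited TPM values sum over all entries, with 96 spike-ins among them. The deposited isoform percent is a transcript's share of its gene's TPM, and the deposited posterior SD of the count is a score of sharing. Splice junction and contig files on mm9 were not used.

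After rounding, expected counts were scaled with the TMM method of edgeR 4.0.16 under R 4.3.3. Ratios are replicate 1 over replicate 2, with a prior count of 0.5 reads, for genes with at least 20 reads in all. A gene was called apart at 1.5-fold. Each side is 1 library, so no test was made and no p-value is given. Intervals are exact Clopper-Pearson at 95% and cover counting error only, because each side is 1 library. The reads carry no molecular identifiers and may be copies of 1 molecule, so counting error may be larger than the intervals show. DESeq2 1.42.0 size factors, total reads, spike-in reads and TPM were alternative scalings. Symbols and coordinates were read from GENCODE M21 (GRCm38, of which mm10 is another name) for 42462 of 43346 genes, and promoters came from RefSeq. Transcript lengths of M21 can differ from those of M4. The ratio step was tested on simulated counts with 200 changed genes.

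The genes and lists were chosen with earlier results of these data known. Besides the 10 genes, the text names, for each list, the 3 most abundant genes and up to 4 with the largest ratio past the fold at a mean of 1 TPM or more, the most abundant of each marker list, and the 3 genes nearest in level to the members of highest and lowest ratio. Genes outside this rule are marked as such or complete a count of 5 or fewer.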

Additional observations from a re-analysis of the deposited data

How the results depend on the processing

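The 4 genes past 1.5-fold (Dusp1, Fkbp5, Klf15 and Tsc22d3) were the same under scaling by total reads, spike-in reads, DESeq2 size factors or TPM, with a prior count of 5, without the filter on reads, and among genes at a mean of 1 TPM or more. At a fold of 2 the count was 0. Genes of the related lists, counted once each without the 10, were past 1.5-fold in 32 of 110 tested, 20 higher and 12 lower in replicate 1. Over all genes tested, 20.7% were past it, 7.52% higher and 13.2% lower. At a fold of 2 the related lists gave 14, with 10 higher and 4 lower. Scaling at 1.5-fold gave 13 higher and 15 lower by spike-ins, 15 and 15 by total reads, and 14 and 12 by TPM. The lean of these lists towards replicate 1 thus depends on the scaling. Without the filter on reads, 2770 genes of the whole table were higher and 4306 lower in replicate 1, and at a fold of 2 there were 400 and 855. Scaling by total reads, spike-ins or TPM shifted the median log2 ratio of all genes to -0.13, -0.15 and -0.13. The share of called genes that were higher in replicate 1 was 24.3%, 22.2% and 23.5% under these, against 36.3% under TMM. The median of the genes' mean TPM was 31.6, and 38.2 when TPM was rescaled over nuclear protein-coding genes; it ranged from 28.2 to 34.9 when either replicate was left out. The causes were not tested. A ratio needs both libraries, so leaving one out gives none. The leading transcript was the same in both libraries for 9 of 10 genes, of which Zfp36, Zbtb16 and Klf9 have only 1 model. Motifs were found for 4 genes with or without the 50 bases after the start. No paired analysis was possible because there is 1 group. Depth limits Zbtb16, Sgk1 and Cdkn1a most, and 2 libraries limit every spread.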
